A study of Mus musculus with 2 samples.

Results

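Open chromatin at 1153 intergenic regions of mouse blood monocytes was examined, each lying more than 100 kb from the start of any protein-coding gene. Overlapping peaks of the series' conservative set were merged on chromosomes 1 to 19, and a region was kept where its summit lay outside every protein-coding gene body and over 100 kb from the nearest protein-coding transcription start site (TSS). The members made up 4.13% of the 27898 merged regions. Their median distance to a TSS was 172381 bp, with quartiles of 132133 and 235667 bp, and the farthest lay 2140 kb away. Among the peaks of that set, the rule used position only. The set itself had passed the authors' filter on signal ranks, so strength and replicate agreement below are not independent of how regions were chosen.

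The series held 1 group of 2 biological replicates of primary monocytes from the peripheral blood of C57BL/6J mice 5 to 6 weeks old, with no treatment, allele or control group named in the labels. Each replicate was made from 50000 cells by ATAC-seq, in which the Tn5 transposase inserts adapters where DNA is not wrapped by nucleosomes. The labels give both replicates 1 shared donor identifier and are silent on whether different mice were used, so differences between the replicates may reflect technique alone. The number of reads behind the peaks is unknown. With 2 replicates and no control, no test between groups of samples was available, and regions are not replicates, so the values below are descriptions set beside those of all regions. The myeloid genes Spi1, Csf1r, Lyz2, Itgam and Cx3cr1 each had a region within 1 kb of a TSS, with fold enrichment of 3.82 at the weakest and 6.65 at the strongest. The lymphoid genes Cd3e, Cd79a and Rag1 had none, while the B-cell factor Pax5 had a promoter region with a fold enrichment of 5.60.

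Genes are controlled by their promoters and by enhancers, which can lie far along the chromosome and reach a promoter when chromatin folds into a loop. In monocytes, enhancers are known to be opened by PU.1 and C/EBP proteins, which define the myeloid lineage, and by RUNX and AP-1 proteins, which work beside them. CTCF binds a long motif and halts the cohesin complex that extrudes loops, so it marks loop anchors. Open chromatin shows where proteins have access to DNA, not which gene a site acts on, and each nearest gene named here is a position and not a target.

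The DNA of the strongest members with a motif shows what was counted. For each of the motifs CTCF, PU.1 (GAGGAAGT), C/EBP (TTGCNNAA), AP-1 (TGANTCA) and RUNX (TGTGGTT), 2 members with a match within 100 bp of the summit are printed. They are the best by mean rank of fold enrichment over the replicates, outside chromosomes 8 and 18 and leaving out a member already printed for an earlier motif. The AP-1 member nearest Pde7b thus stands ahead of the RUNX member nearest Stmn2 in rank and also holds a RUNX match, which is not marked. Each line gives 201 bases around the summit, plus strand, from the RefSeq genome GRCm38.p6 (mm10), and capitals mark the motif named on that line, which on the minus strand reads as its reverse complement.
CTCF member nearest Ly96, chr1:16798341-16798541: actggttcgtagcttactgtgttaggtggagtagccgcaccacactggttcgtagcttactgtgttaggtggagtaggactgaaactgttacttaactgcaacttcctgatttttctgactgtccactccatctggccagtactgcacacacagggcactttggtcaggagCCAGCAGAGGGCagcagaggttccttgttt
CTCF member nearest Lrig3, chr10:125725430-125725630: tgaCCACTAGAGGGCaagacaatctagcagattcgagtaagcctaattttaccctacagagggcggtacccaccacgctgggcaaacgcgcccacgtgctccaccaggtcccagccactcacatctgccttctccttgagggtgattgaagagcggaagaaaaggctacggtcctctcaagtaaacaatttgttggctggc
PU.1 member nearest Gpd2, chr2:57587191-57587391: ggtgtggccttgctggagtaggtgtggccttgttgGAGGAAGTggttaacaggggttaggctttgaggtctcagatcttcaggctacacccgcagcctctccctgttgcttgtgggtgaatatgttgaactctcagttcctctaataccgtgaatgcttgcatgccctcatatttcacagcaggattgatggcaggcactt
PU.1 member nearest Gm5426, chr10:96274082-96274282: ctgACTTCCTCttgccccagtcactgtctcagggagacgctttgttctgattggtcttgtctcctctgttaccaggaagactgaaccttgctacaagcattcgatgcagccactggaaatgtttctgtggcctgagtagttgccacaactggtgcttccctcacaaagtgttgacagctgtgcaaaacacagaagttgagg
C/EBP member nearest St3gal1, chr15:67345621-67345821: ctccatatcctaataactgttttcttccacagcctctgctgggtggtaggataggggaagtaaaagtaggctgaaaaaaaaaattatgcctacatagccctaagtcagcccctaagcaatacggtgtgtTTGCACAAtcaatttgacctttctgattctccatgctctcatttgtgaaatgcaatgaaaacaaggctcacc
C/EBP member nearest Mreg, chr1:71974818-71975018: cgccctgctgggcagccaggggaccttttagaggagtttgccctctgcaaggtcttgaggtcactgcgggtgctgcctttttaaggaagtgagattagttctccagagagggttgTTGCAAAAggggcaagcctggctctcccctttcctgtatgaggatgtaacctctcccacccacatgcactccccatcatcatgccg
AP-1 member nearest Pde7b, chr10:20835278-20835478: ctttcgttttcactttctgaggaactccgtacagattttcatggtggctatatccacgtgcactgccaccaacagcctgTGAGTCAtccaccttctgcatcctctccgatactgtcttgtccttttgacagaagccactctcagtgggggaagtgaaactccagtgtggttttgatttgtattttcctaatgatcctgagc
AP-1 member nearest Trib1, chr15:59795778-59795978: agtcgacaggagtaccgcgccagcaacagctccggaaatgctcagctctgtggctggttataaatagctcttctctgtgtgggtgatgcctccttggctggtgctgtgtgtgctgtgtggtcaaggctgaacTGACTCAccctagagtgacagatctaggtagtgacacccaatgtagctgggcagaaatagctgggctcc
RUNX member nearest Agr3, chr12:35799318-35799518: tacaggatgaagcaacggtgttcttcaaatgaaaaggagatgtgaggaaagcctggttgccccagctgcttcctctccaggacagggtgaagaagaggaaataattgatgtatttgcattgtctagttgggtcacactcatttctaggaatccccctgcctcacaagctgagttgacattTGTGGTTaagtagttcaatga
RUNX member nearest Stmn2, chr3:8245249-8245449: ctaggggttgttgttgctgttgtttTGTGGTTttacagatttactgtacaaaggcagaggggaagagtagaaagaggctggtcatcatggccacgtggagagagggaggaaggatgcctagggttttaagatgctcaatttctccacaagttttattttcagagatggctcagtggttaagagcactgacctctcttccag

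The motif lies off the summit in several of these windows, and none of the 10 windows had a second copy in the genome at 97% identity. The strongest of the 10 by the authors' fold enrichment over background in the conservative set was the RUNX member upstream of Agr3, at 15.4, with 13.5 in replicate 1 and 13.7 in replicate 2. The PU.1 member nearest Gpd2, which encodes a mitochondrial glycerol phosphate dehydrogenase, had 14.3 in the conservative set, 11.8 in replicate 1 and 12.9 in replicate 2. The CTCF member nearest Ly96, which encodes the TLR4 coreceptor MD-2, had 11.1 in the conservative set, 9.86 in replicate 1 and 10.8 in replicate 2. The replicates were close at each of these members, and the replicate values stood below the conservative set's value in most of them. The AP-1 member downstream of Trib1, a pseudokinase gene, was an exception in replicate 1, with 12.2, against 9.93 in replicate 2 and 11.7 in the conservative set.

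Open regions grew sparse with distance from genes. Intergenic sequence over 100 kb from a TSS covered 737 Mb, or 30.8% of the sequenced bases of chromosomes 1 to 19, and held 1.56 members per Mb. The density was 10.6 regions per Mb in intergenic sequence 10 to 100 kb from a TSS and 17.2 per Mb at 1 to 10 kb. Inside the far class the decline went on. There were 735 members at 100 to 200 kb, 372 at 200 to 500 kb and 46 beyond 500 kb, or 3.52, 1.28 and 0.195 per Mb. The replicates' own thresholded sets gave the same order, with 0.807 per Mb in replicate 1 and 0.862 per Mb in replicate 2 over 100 kb, against 5.84 and 5.77 per Mb at 10 to 100 kb.

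**Figure D1:**
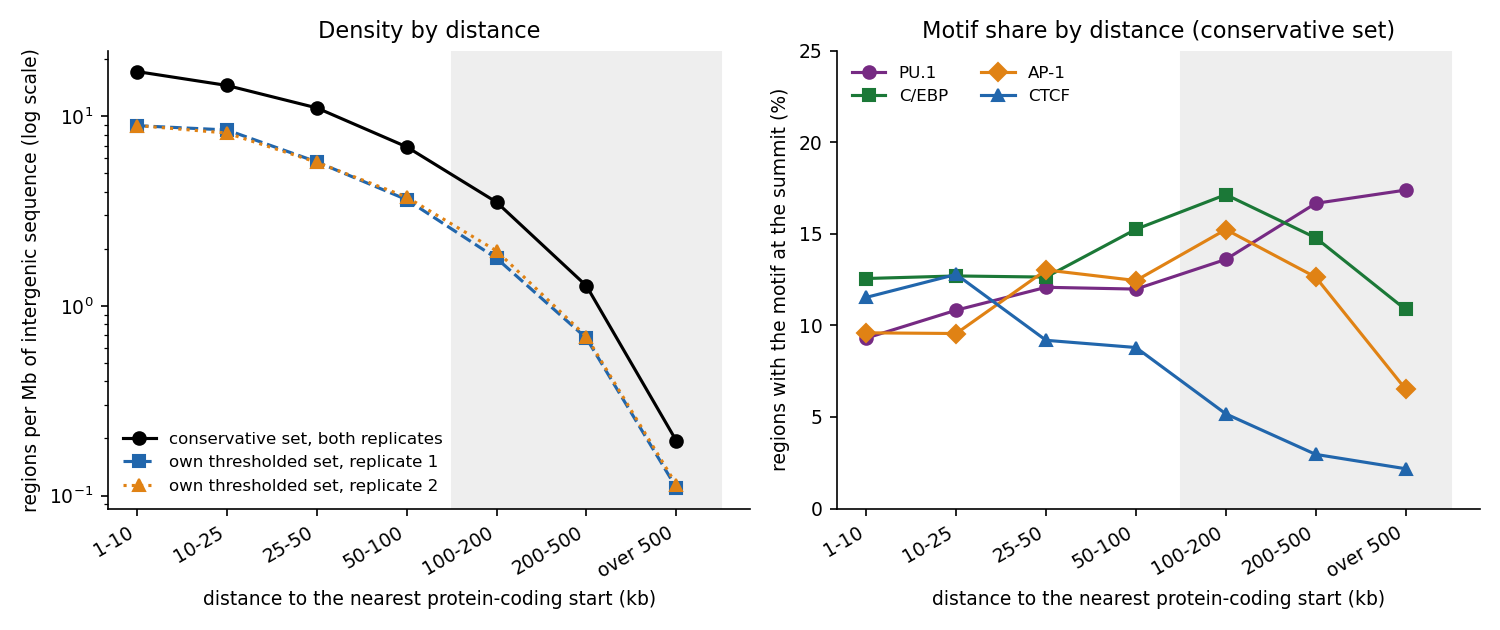
Left, regions per Mb of intergenic sequence (log axis) by distance to the nearest protein-coding TSS in kb, for the conservative set and each replicate's own thresholded set. Right, percentage of conservative-set regions with each motif within 100 bp of the summit. Grey shading marks distances over 100 kb, where density fell to 0.195 per Mb beyond 500 kb and CTCF to 2.17% while PU.1 reached 17.4%.

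Within the conservative set, a far region was about as strong and as wide as other intergenic regions. Median fold enrichment was 6.44 for members (quartiles 5.31 and 8.13), 6.38 for intergenic regions 10 to 100 kb away, 5.72 for those 1 to 10 kb away and 6.48 for all regions. Median width was 394 bp for members, 390 and 360.5 bp in the same 2 nearer classes, and 448 bp over all regions. The members together spanned 515 kb of DNA, and 215 of them (18.6%) were merged from several peaks. That share was 20.5% at 10 to 100 kb, 17.8% at 1 to 10 kb and 29.9% over all regions. The members' sequence was poorer in G and C. Median GC content within 100 bp of the summit was 48.8% in members, 50.7% at 10 to 100 kb, 51.2% at 1 to 10 kb and 53.7% over all regions, and the CpG ratio (observed over expected) was 0.236, 0.264, 0.272 and 0.364 in the same order. The summit base lay in sequence that the reference marks as repeat in 120 members (10.4%). That share was 8.30% at 10 to 100 kb, 8.77% at 1 to 10 kb and 6.91% over all regions.

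Members came from a set that had passed the authors' filter on ranks kept between replicates or pseudoreplicates. Close signal between replicates was thus partly a result of selection. Each replicate alone called only part of the members. The own thresholded set of replicate 1 held 572 members (49.6%), against 59.7% of all regions, and that of replicate 2 held 595 (51.6%), against 60.9%. Both sets held 458 members (39.7%), against 50.3% of all regions. Without regard to strength, the nearer intergenic classes were much like the members, with 39.8% held by both sets at 10 to 100 kb and 38.8% at 1 to 10 kb. The classes differed in strength, since folds up to 5.14 made up 20.6% of members, 23.5% at 10 to 100 kb and 36.9% at 1 to 10 kb. Another 251 members were in the set of 1 replicate, and 444 were in neither. With all regions cut into 4 equal groups by fold enrichment, members were held less often than all regions in each group. The gap was narrow in the strongest group. In the lowest group, up to 5.14, replicate 1 held 10.5% of members against 19.6% of all regions, and replicate 2 held 15.6% against 21.4%. In the next group the shares were 28.5% against 44.5% in replicate 1 and 29.0% against 45.6% in replicate 2. In the group from 6.48 to 8.40 they were 67.6% against 77.7% in replicate 1 and 71.2% against 78.9% in replicate 2. Above 8.40, they were 95.6% against 97.3% in replicate 1 and 94.8% against 97.8% in replicate 2.

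**Figure D2:**
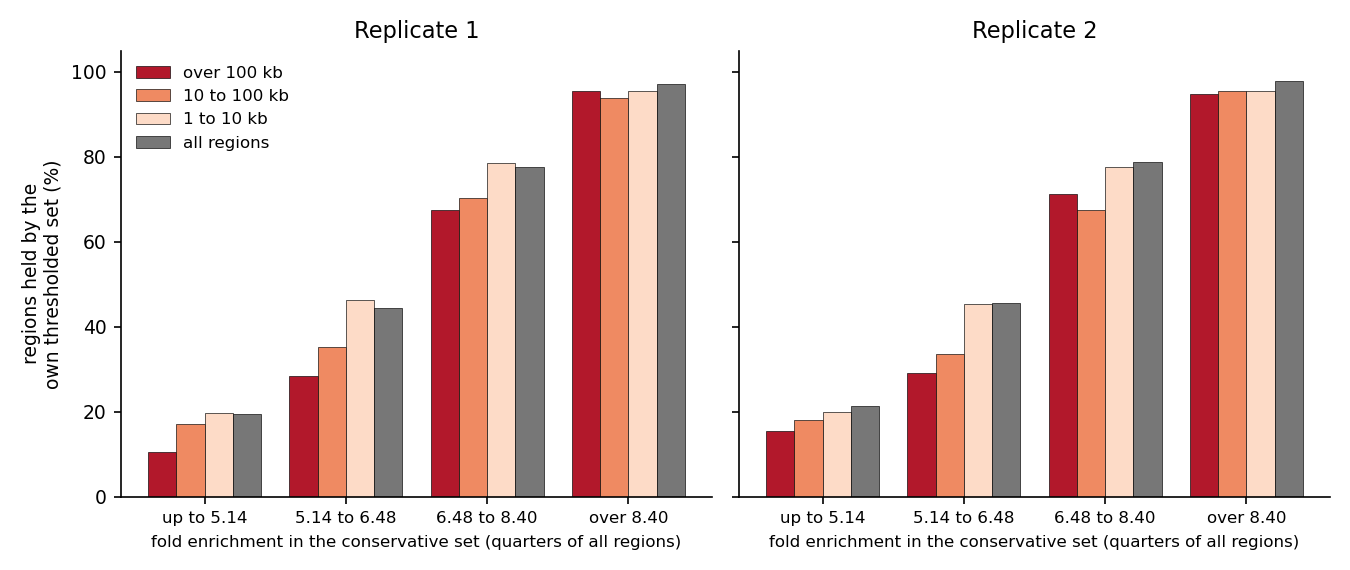
Percentage of regions held by the own thresholded set of replicate 1 (left) and replicate 2 (right), by 4 equal groups of conservative-set fold enrichment over all regions. Bars are intergenic regions over 100 kb, 10 to 100 kb and 1 to 10 kb from a TSS, then all regions; members were at 10.5% and 15.6% in the lowest group and at 95.6% and 94.8% in the highest.

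The looser pseudoreplicated sets held most members, 1073 (93.1%) in replicate 1 and 1089 (94.4%) in replicate 2. The shares of all regions were slightly higher, at 94.6% and 94.9%. Both sets missed 20 members, and 414 of all 27898 regions. Across the 1029 members in both sets, the log2 difference in fold enrichment, replicate 2 less replicate 1, was centred on a median of -0.00 with an SD of 0.26, while the median was -0.03 and the SD 0.24 over all regions. The difference exceeded 1 on the log2 scale at 1 member (0.0972%), against 0.0394% of all regions in both sets. Between replicates, the Pearson correlation of log2 folds was 0.825 in members and 0.879 over all regions. The Spearman correlation was 0.778 and 0.862. Only regions with a peak in both lists entered these values, which favours agreement. Since the folds come from 2 separate lists, these differences include any scaling between the lists.

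**Figure D3:**
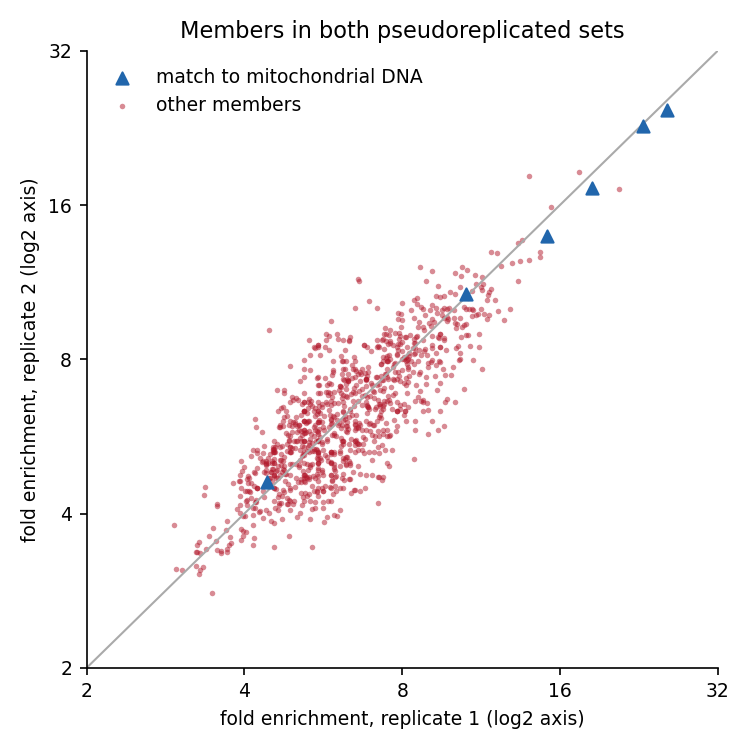
Fold enrichment in replicate 1 against replicate 2 (both log2 axes) for the 1029 members in both pseudoreplicated sets; the line marks equal values. Blue triangles are the 6 members that match mitochondrial DNA, of which 4 sit at the upper end.

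The PU.1, C/EBP, AP-1 and RUNX motifs were found in a larger share of members than of nearer intergenic regions or of all regions, and the CTCF, KLF and NF-kB motifs in a smaller share. A PU.1 match lay within 100 bp of the summit in 170 members (14.7%), against 11.5% at 10 to 100 kb, 9.31% at 1 to 10 kb and 8.98% of all regions. C/EBP matches were in 186 members (16.1%), against 13.3%, 12.6% and 10.8% in the same classes. AP-1 matches were in 162 members (14.1%), against 11.4%, 9.60% and 8.53%. RUNX matches were in 126 members (10.9%), against 9.66%, 8.61% and 7.23%. All 4 motifs thus followed the order of distance class. CTCF ran the other way among intergenic regions, with 50 members (4.34%) holding a match, against 10.7% at 10 to 100 kb, 11.5% at 1 to 10 kb and 6.68% of all regions. By distance, CTCF matches were at 5.17% of members at 100 to 200 kb, 2.96% at 200 to 500 kb and 2.17% beyond 500 kb, while PU.1 matches were at 13.6%, 16.7% and 17.4%. AP-1 and C/EBP did not follow PU.1 within the far class. AP-1 matches were at 15.2%, 12.6% and 6.52% in the same bins and C/EBP matches at 17.1%, 14.8% and 10.9%, the last bin holding only 46 members and a C/EBP share level with the 10.8% of all regions. A lower limit of 50 kb brought the CTCF share to 6.69%, level with all regions, while limits of 100, 200 and 500 kb each gave a share below it. Each replicate's own far regions kept these contrasts with all regions of that replicate. The PU.1 share was 15.8% of far regions against 8.56% of all regions in replicate 1, and 14.6% against 8.56% in replicate 2. The CTCF share was 3.03% against 4.50% in replicate 1, and 2.20% against 4.28% in replicate 2.

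**Figure D4:**
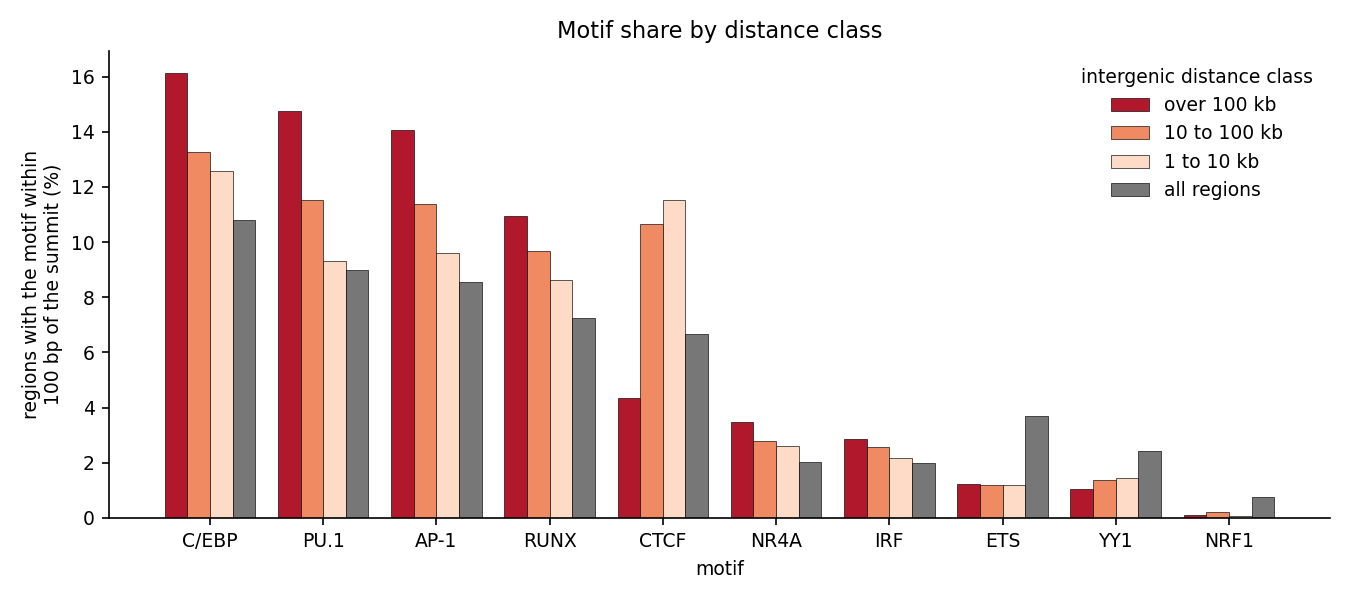
Percentage of regions with each motif within 100 bp of the summit, for intergenic regions over 100 kb, 10 to 100 kb and 1 to 10 kb from a TSS and for all regions. Members had the highest bars for C/EBP (16.1%), PU.1 (14.7%), AP-1 (14.1%) and RUNX (10.9%), and a lower CTCF bar (4.34%) than both nearer classes.

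Set against windows 500 bp to each side of the same summits, CTCF matches in members were 33.3 times and PU.1 matches 11.7 times as frequent at the summit. The CTCF ratio was 42.9 at 10 to 100 kb and 56.0 at 1 to 10 kb, and the PU.1 ratio 8.18 and 7.53. The ratio for RUNX was 2.42 in members, 1.79 at 10 to 100 kb and 1.39 at 1 to 10 kb, and for AP-1 it was 2.22, 1.83 and 1.68. C/EBP differed from these, with a lower ratio in members, 1.54, than the 1.78 and 1.81 of the nearer classes. The C/EBP motif was also more frequent in the 500 bp flanks of members, at 10.5% of windows, against 7.46% and 6.94%. With flanks at 1000 bp the C/EBP ratio was 1.62 in members, 1.62 at 10 to 100 kb and 1.70 at 1 to 10 kb. Promoter motifs were rare in members and in the nearer intergenic classes alike. The ETS motif CCGGAAGT was in 14 members (1.21%), against 1.18% at 10 to 100 kb, 1.19% at 1 to 10 kb and 3.68% of all regions. The motif of NRF1, a factor of housekeeping promoters, was in 1 member (0.0867%), against 0.202%, 0.0824% and 0.763% in the same order. The NR4A motif AAAGGTCA was in 40 members (3.47%), against 2.78% at 10 to 100 kb, 2.59% at 1 to 10 kb and 2.03% of all regions. NR4A proteins are nuclear receptors, and NR4A1 is needed for the patrolling class of mouse monocytes. The IRF motif was in 33 members (2.86%), against 2.58%, 2.18% and 1.98% in the same classes. It overlaps the ETS-IRF composite motif, found in 31 members (2.69%), against 2.58%, 2.68% and 1.92%. The KLF motif GGGTGTGG was in 3.21% of members, against 4.40% at 10 to 100 kb, 4.04% at 1 to 10 kb and 4.08% of all regions. The NF-kB motif was in 4.34% of members, against 5.54%, 6.10% and 5.99% in the same classes. Searched on both strands, none of the 5 leading motifs was found in 575 members (49.9%), against 64.1% of all regions, 1 was found in 471, 2 in 98 and 3 in 9. The pair found together most often was C/EBP with AP-1, in 29 members, while CTCF and PU.1 met in 1.

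The 50 members with a CTCF match were weaker and less often called in a replicate than the rest. Their median fold enrichment was 5.74, against 6.47 for members without the motif. The own set of replicate 1 held 20 of them (40%), against 50.05% of the others, and that of replicate 2 held 14 (28.0%), against 52.7%. The median fold was 6.82 for members with a PU.1 match and 6.32 for those without, and 89 of the 170 were held by each replicate's own set.

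Many members lay in noncoding genes, although the rule kept them out of coding ones. The body of an annotated long noncoding RNA (lncRNA) gene held 262 members (22.7%), against 12.8% of regions 10 to 100 kb away and 8.70% of all regions. Only 52 members (4.51%) lay within 1 kb of a lncRNA start, against 5.75% of all regions, and 870 (75.5%) lay outside every annotated gene. Several of the strongest members were lncRNA starts. A member at chr17:16951288-16951658, 69 bp from the start of BC002059, had a fold enrichment of 17.4 in replicate 1 and 18.6 in replicate 2. A second at chr17:17234314-17235012, 73 bp from the start of Gm5165, had 13.97 in replicate 1 and 18.2 in replicate 2. Both were among the 10 members with the best mean rank over the replicates, and replicate 2 was the higher at each. Of the others among the 10, the member 636 kb upstream of Epha7, an ephrin receptor gene, had 20.8 in replicate 1 and 17.2 in replicate 2 at a GC content of 33.3%. A member downstream of the olfactory receptor gene Olfr693, whose window had 3 copies in the genome, had 15.4 in replicate 1 and 15.8 in replicate 2. The member nearest Hpcal1 had 14.6 in replicate 1 and 12.9 in replicate 2, and the Agr3 member is printed above.

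Another 4 of those 10 matched mitochondrial DNA. Copies of mitochondrial sequence are scattered in nuclear chromosomes, and reads from the many mitochondrial genomes of a cell can be placed on them. A match to the reference mitochondrial genome of at least 50 bp was found in 6 members (0.520%), against 18 of all regions (0.0645%), at identities of 90.7% to 99.7%. The member with the highest fold enrichment, chr12:97061378-97061854, lay 1182 kb from the nearest TSS, that of Galc, and had 25.6 in replicate 1 and 24.6 in replicate 2. It matched the control region (D-loop) at 99.7% identity over 365 bp. The next, chr5:60042661-60043135, had 23.1 in replicate 1 and 22.8 in replicate 2 and matched ND2, a subunit of respiratory complex I, and neighbouring transfer RNA genes at 97.9%. A member at chr6:9889887-9890221 had 18.4 in replicate 1 and 17.3 in replicate 2. The other three lay beside each other on chromosome 4, at 15.1, 10.6 and 4.43 in replicate 1 and 13.9, 10.7 and 4.61 in replicate 2. The part of mitochondrial reads in these values was not tested. Without the 6, the median fold enrichment of members was 6.42, the highest was 22.004, and the own sets of replicates 1 and 2 held 49.4% and 51.4%. The window around the strongest summit is printed because it was identical to mitochondrial DNA at 201 of 201 bases, which the capitals mark. It was chosen after its values were seen.
D-loop match, chr12:97061451-97061651: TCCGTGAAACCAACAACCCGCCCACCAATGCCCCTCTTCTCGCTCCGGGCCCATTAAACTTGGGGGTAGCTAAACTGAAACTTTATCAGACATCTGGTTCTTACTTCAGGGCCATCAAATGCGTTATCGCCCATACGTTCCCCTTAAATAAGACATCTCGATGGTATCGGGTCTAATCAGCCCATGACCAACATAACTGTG

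A second copy of the 201-base window elsewhere in the genome was found for 24 members (2.08%), against 2.76% of regions 10 to 100 kb away. The 24 had a median fold of 7.76, while it was 6.42 for members with a single copy. They include the mitochondrial matches nearest Galc, G6pd2 and Nxph1 and the strongest nearest Tyrp1, at conservative-set folds of 26.6, 24.9, 19.9 and 15.6. At 10 to 100 kb the order was the other way, with 6.14 for regions with a second copy and 6.39 for the rest.

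Members concentrated beside genes whose promoters were open in the same cells. The nearest gene had a conservative-set region within 1 kb of a TSS for 720 members (62.4%), while such genes were nearest to 34.5% of the eligible sequence, meaning sequenced DNA outside coding gene bodies and over 100 kb from a TSS. That is 2.83 members per Mb beside genes with an open promoter and 0.897 per Mb beside the others. For regions 10 to 100 kb away the share with an open nearest promoter was 65.5%. The 2 groups of members had similar strength, with a median fold enrichment of 6.42 beside open promoters and 6.45 beside the others. CTCF matches were at 21 of 720 members (2.92%) beside open promoters and 29 of 433 (6.70%) beside the others, and all 6 mitochondrial matches lay beside genes whose promoters were not open.

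The members were also gathered at few genes. Of 2745 protein-coding genes with eligible far sequence nearest to them, 469 had a member. Of these, 251 had 1 member, while 67 genes had 5 or more and together 505 members (43.8%), and 15 genes had 10 or more. Crowded and single members differed most in CTCF and PU.1 matches. CTCF matches were at 8 of the 505 members (1.58%) whose nearest gene had 5 or more, and at 24 of the 251 (9.56%) that were alone. PU.1 matches were at 16.8% of the crowded and 9.16% of the single members. AP-1 matches were at 15.4% and 11.2%, RUNX matches at 11.3% and 9.56%, and C/EBP matches at 16.8% and 17.1%, so the most common motif was about equally frequent in both. The own set of replicate 1 held 53.9% of the crowded and 45.0% of the single members, and that of replicate 2 held 54.3% and 50.2%. Crowded members also lay farther from a TSS, at a median of 178.6 kb, than single ones, at 146.8 kb. A second copy of the window in the genome was found for 8 of the 505 and 13 of the 251. The part of distance in these motif shares was not tested. This split was chosen after earlier results were known and was not tested.

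Id2 and Klf4, both regulators of transcription, headed the count of members per nearest gene. Id2, an inhibitor of basic helix-loop-helix factors, had 19 members, all upstream, from 106 to 419.8 kb from its TSS. Their fold enrichment in the conservative set was 4.59 to 9.68 with a median of 6.999, and each replicate's own set held 10 of them. The strongest, chr12:25329936-25330513, had 7.84 in replicate 1 and 9.84 in replicate 2. The 6 members nearest the TSS had conservative-set folds of 4.59 to 6.52, and of the 9 from 233 kb onward 8 were higher than these, the exception having 4.89. Klf4, a zinc-finger factor needed for monocyte development, had 17 members upstream, from 119 to 582 kb, at 4.41 to 12.5. The strongest, chr4:55823699-55824410, lay 292 kb from the TSS, held an IRF and an ETS-IRF composite motif, and had 12.1 in replicate 1 and 10.4 in replicate 2. It stood above the others at Klf4 in both replicates, 1 of which had no peak in replicate 1, and of the 17 members replicate 1 held 5 and replicate 2 held 6 in their own sets.

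Prdm1, which encodes the repressor Blimp-1, had 10 members from 131 to 244 kb upstream. The nearest of them, chr10:44589196-44589735, lay 703 bp from the start of the lncRNA Gm48061 and had 11.3 in replicate 1 and 11.1 in replicate 2. The other members there ranged up to 8.90 in replicate 1 and 7.39 in replicate 2. Maf, a bZIP factor of macrophages, had 10 members downstream, and the strongest was also the farthest, at 309 kb, with a PU.1 and a KLF motif, 10.9 in replicate 1 and 10.05 in replicate 2. Zeb2, a zinc-finger repressor expressed in monocytes, had 10 members in a near and a remote group. Within 103 to 162 kb lay 6, of which the strongest had 9.04 in replicate 1 and 9.97 in replicate 2. Between 785 and 1327 kb lay 4, of which the strongest, at 1254 kb, held an AP-1 motif and had 7.98 in replicate 1 and 9.53 in replicate 2. Zeb2 itself had no conservative-set region within 1 kb of a TSS. Jarid2, a cofactor of the Polycomb repressive complex, had 13 members upstream from 128 to 424 kb, at 3.15 to 10.4.

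Receptor and matrix genes had clusters of the same kind. Cxcr4, the chemokine receptor that holds leukocytes in the marrow, had 11 members upstream from 104 to 283 kb. The strongest, chr1:128712559-128713333, held a PU.1 motif and had 9.29 in replicate 1 and 10.1 in replicate 2, above every other member there in both replicates. Thbs1, which encodes the matrix protein thrombospondin 1, had 11 members upstream from 104 to 269 kb, all in lncRNA gene bodies and 5 of them with a C/EBP motif. Its strongest member by the conservative set, at 135 kb, had 6.62 in replicate 1 and 11.4 in replicate 2, so the replicates disagreed there more than at most members. Trib1, a pseudokinase that directs C/EBP-alpha to degradation, had 12 members downstream from 104 to 183 kb. The replicates' own sets held 7 of them in replicate 1 and 10 in replicate 2. The strongest, printed above for its AP-1 motif, lay 919 bp from the start of the lncRNA Gm19510.

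**Figure D5:**
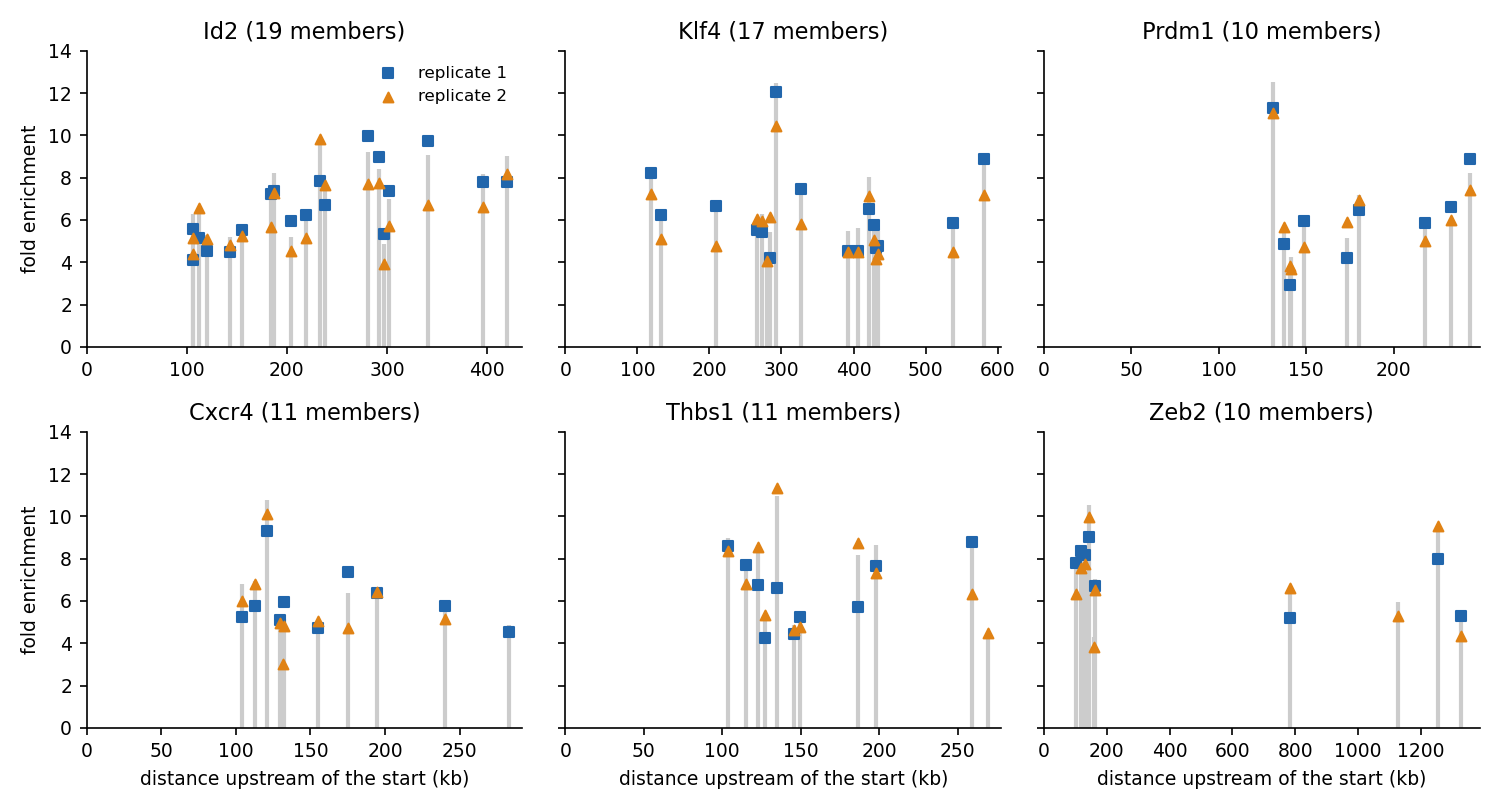
Members whose nearest gene was Id2, Klf4, Prdm1, Cxcr4, Thbs1 or Zeb2, by distance upstream of the gene's TSS (kb) and fold enrichment; grey bars give the conservative set, squares replicate 1 and triangles replicate 2. The tallest bars were at Klf4 and Prdm1, at 12.5 in each, and Zeb2 members formed 2 groups up to 1327 kb.

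Counted by the stretch between protein-coding gene bodies, members fell in 396 intervals. The fullest lay between Gm5426 and Btg1, an antiproliferative gene, with 24 members in 480.1 kb. Next were the intervals of Id2 and Rnf144a with 21, Klf4 and Actl7b with 18, and Trib1 and 4933412E24Rik with 16. The intervals of Bcl2l11 and Spdye4c and of Klf14 and Mkln1 each had 15, and those of Zeb2 and Acvr2a and of Uaca and Tle3 each had 14. Bcl2l11 encodes the pro-apoptotic protein BIM. None of these 8 intervals had a mitochondrial or a CTCF match. Another member lay within 25 kb of 698 members (60.5%), against 64.2% of regions 10 to 100 kb away. These shares were close although members lay at 1.56 per Mb and regions 10 to 100 kb away at 10.6 per Mb. Spacing for a given density was not tested. In 23 intervals with 10 or more members lay 312 of the 1153.

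Set out by gene list, far regions were dense beside the genes listed here as myeloid and sparse beside developmental regulators of other tissues. The lists were not independent of earlier results of these data, so the contrast is a description and was not tested. Over all genes the density was 1.56 members per Mb of eligible sequence. The list of myeloid transcription factors had 130 members at 26 of its 38 genes with eligible sequence, or 10.3 per Mb. It includes Zfp36l2, which encodes an RNA-binding protein and not a transcription factor and had 7 of the 130. Satb1, Bach2, Ets1 and Myc also stand in it, and whether its genes are restricted to myeloid cells was not tested. Monocyte receptor, adhesion and cytokine genes had 37 members at 8 of 14 genes, or 11.3 per Mb. Lymphoid genes had 5 members at 3 of 10 genes, or 1.44 per Mb, and the developmental regulators 11 members at 6 of 48 genes, or 0.292 per Mb. The replicates' own sets kept this order. Replicates 1 and 2 had 5.54 and 5.77 per Mb beside the myeloid factors, 7.33 and 7.94 beside the receptor genes, 0.575 and 0.575 beside the lymphoid genes, and 0.133 and 0.0795 beside the developmental regulators, against 0.807 and 0.862 over all genes. A few genes carried most of both myeloid lists, since Id2, Klf4, Maf, Prdm1 and Zeb2 held 66 of the 130 myeloid members, and Cxcr4 and Thbs1 22 of the 37. A promoter was open at 64 of 74 genes of the myeloid factor list (86.5%), 48 of 60 receptor genes, 7 of 23 lymphoid genes (30.4%) and 3 of 58 developmental regulators (5.17%), against 9880 of all 20698 protein-coding genes (47.7%). Eligible sequence was 12.6 Mb for the myeloid factors, 3.27 Mb for the receptor genes, 3.48 Mb for the lymphoid genes and 37.7 Mb for the developmental regulators. Density fell with distance inside the far class, and the lists were not matched for distance. The part of distance in these densities was not tested.

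Smaller clusters within the lists reached other regulators. Zfp36l2, whose product acts in mRNA decay, had its 7 members from 114 to 159 kb, at 4.44 to 7.11. Jun, an AP-1 subunit, had 6 from 109 to 178 kb, at 4.24 to 11.0, and Klf6 had 6 from 135 to 349.5 kb, of which 3 held a PU.1 motif. Ets1 had 6, of which the own set of replicate 1 held 1. Bcl6, a zinc-finger repressor, had 4, and the strongest, at 114 kb, had 12.8 in replicate 1 and 10.04 in replicate 2. Myc had 3 members downstream, and the strongest, at 364 kb, had 7.45 in replicate 1 and 8.98 in replicate 2 with an IRF motif. Tgfbr2, a receptor for TGF-beta, had 3 from 191 to 209 kb, at 10.4, 10.3 and 4.75 in replicate 1 and 8.84, 8.01 and 6.97 in replicate 2. Ptger4, the prostaglandin E2 receptor EP4, had 5 with a highest fold of 11.3, and Itga4, the alpha-4 integrin subunit, had 3 at 6.27 to 7.62. The 5 lymphoid members were 3 at Bcl11a, 1 at Eomes and 1 at Gata3. Bcl11a stands in the developmental list too, whose other members were 3 at Gata6, 2 at Sall3 and 1 each at Cdh12, Sox9 and Tbx3.

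Of the 5 most remote members, 4 stood above the members' median fold of 6.44. The farthest, chr1:102628174-102628385, lay 2140 kb upstream of Cdh20 and had 10.4 in replicate 1 and 9.24 in replicate 2. In the same stretch between protein-coding genes, chr1:101902187-101902481 lay 1805 kb from Cntnap5b and had 9.43 and 8.45, though neither replicate's own set held it. The third was the ND2 match on chromosome 5 described above. A member 1763 kb upstream of Flrt2 had 5.75 in replicate 1 and 5.55 in replicate 2, and a member 1653 kb upstream of Pabpc4l had 9.75 and 10.04. At the other end, the 5 members just over 100 kb lay 100.006 to 100.777 kb from Ralgapa2, Ifngr1, Plxna1, Bank1 and Tcte2, with conservative-set folds of 5.24, 5.03, 4.27, 10.1 and 6.58. The 5 regions just under it lay 99.615 to 99.939 kb from Arid5b, Gadd45g, Tmpo, Ubl3 and Tcte2, with folds of 5.29, 10.8, 6.09, 7.52 and 4.81. A region on each side belonged to the same stretch at Tcte2, under 1 kb apart, so the threshold cut through a cluster there.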

How the data were processed

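The files used were peak lists from ATAC-seq of 2 replicates in 1 group, on mm10 per the labels. Which aligner and peak caller were run, and whether reads were shifted for Tn5, is not given in the sources used here. Some lists rest on 1 replicate and others on both. The deposited notes name a further input to some peak lists without saying what it is, so its bearing on the folds and on which peaks were kept is unknown. The fold enrichment of each peak, a linear ratio over background, and its −log10 p are the authors' values as deposited, and were ranked within a list. Folds of the replicates' separate lists were also set side by side, subtracted on the log2 scale and ranked together by mean rank, with no rescaling between lists. IDR, the irreproducible discovery rate, is the authors' filter on ranks kept between replicates or pseudoreplicates. Depth is unknown because only peak lists were read, and no counting interval is given.

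Peaks of the conservative IDR thresholded set that overlap were merged, keeping the top fold and taking the summit from the most significant peak. Gene models were GENCODE M21 and sequence GRCm38.p6. Each TSS was the 5′ end of a coding transcript. Eligible sequence is sequenced DNA outside protein-coding gene bodies and over 100 kb from a TSS. A member was held by a replicate where at least 1 bp overlapped that replicate's own thresholded set, and replicate folds are those of the strongest overlapping pseudoreplicated peak. Motifs (17 searched, both strands) were counted within 100 bp of the summit and in windows 500 bp to each side, and mitochondrial matches were called with blastn at an e-value of 1e-10. Copies needed 97% identity over 90% of the 201-base window.

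Members, lists, motifs and tests were chosen with earlier results of these data known. Regions named were the 10 best by mean rank over replicates, the 5 farthest, 5 on each side of 100 kb, the 8 fullest intervals and members beside listed genes; Trib1, Jarid2, the lncRNA starts and the mitochondrial matches were named after their values were seen. Alternatives were other peak sets, each replicate alone, other distances, merging, motif windows, flanks and overlaps. The functions were tested on simulated peaks and sequence. Python 3.11.15, numpy 2.4.6, pandas 2.3.3, pysam 0.24.0, matplotlib 3.10.9 and BLAST 2.17.0 were used.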

Additional observations from a re-analysis of the deposited data

How the results depend on the processing

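No paired analysis was possible because the series has 1 group. The values examined are counts, shares, medians and ratios, which carry no direction that could turn. The contrast in CTCF share between far and all regions was lost at a limit of 50 kb, with 6.69% against 6.68%. For the looser set the share of all regions was not computed, so the contrast was not tested there. The spread between replicates rests on 2 values. The looser replicated set gave 3669 far regions (6.69% of all, 4.98 per Mb) with a median fold of 3.85, CTCF in 3.54% and PU.1 in 9.68%, and the other IDR thresholded set gave 1.49 per Mb. With each replicate left out, the other's own set gave 595 to 635 regions, 3.45% to 3.59% of all, 0.807 to 0.862 per Mb, a median fold of 7.20 to 7.32, CTCF in 2.20% to 3.03% and PU.1 in 14.6% to 15.8%. A distance over 50 kb gave 2438 regions (8.74%, 2.64 per Mb, median fold 6.33, CTCF 6.69%, PU.1 13.3%), over 200 kb 418 (1.498%, 0.791 per Mb, 6.61, 2.87%, 16.7%) and over 500 kb 46 (0.165%, 0.195 per Mb, 7.68, 2.17%, 17.4%). Outside every annotated gene the far regions were 3.12% of all regions at 1.33 per Mb, with peaks within 500 bp merged they were at 1.497 per Mb, and with 1 TSS per gene they were 4.49%. PU.1 matches were at 10.1% within 50 bp of the summit and at 17.3% over the whole region. The looser pseudoreplicated sets held 93.1% of members in replicate 1 and 94.4% in replicate 2, against 94.6% and 94.9% of all regions. Requiring an overlap of 50% of the member left 48.1% and 49.96% in the own thresholded sets. The fold and p of a peak depend on depth and on the peak caller, which the values used here do not show, and the share of members called in a replicate depends on how strict its set is.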

Other observations

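Members were unevenly spread over chromosomes. Chromosome 10 held 150 of them (13.01%), at 3.90 per Mb of eligible sequence, and chromosome 13 held 123 at 3.18 per Mb, while chromosomes 7 and 11 had 0.726 and 0.745 per Mb. Chromosome 10 carries the intervals of Gm5426 and Btg1 and of Dusp6, an ERK phosphatase gene, and Csl, the last with 13 members. On chromosome 13 lie the intervals of Ly86, which encodes the TLR-related protein MD-1, and Rreb1, and of Cd83 and Jarid2, also with 13 members each. Hlx, a homeobox factor of blood cells, had 9 members downstream from 113 to 290.2 kb, of which 3 held a PU.1 and 3 a C/EBP motif. The widest member, 1944 bp at chr1:184535418-184537361, lay 195 kb downstream of Hlx and had 5.59 in replicate 1 and 6.29 in replicate 2.

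Olfr161, an olfactory receptor gene with no open promoter here, had 7 members upstream from 239 to 476 kb at 4.36 to 13.6, and 5 of them had a second copy in the genome. Members within 1 kb of an annotated small RNA start numbered 3 (0.260%), against 1.32% of all regions. The strongest of them, 212 kb downstream of Epb41l4a, lay 39 bp from the start of the lncRNA Epb41l4aos and had 9.77 in replicate 1 and 9.57 in replicate 2.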
